A study of Mus musculus with 9 samples.

Results

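The guidance ligands studied here were the semaphorins of classes 3 to 7, the slits, the netrins and netrin-Gs, and the ephrins. They were taken by gene name from both deposited RNA sequencing tables. The first table, which sets sham quadriceps against sham heart, held 37 of them among 24537 gene names, listed as 78 of 35745 transcripts, and the transcript with the highest summed count stood for each gene. These were 20 semaphorins, 3 slits, 6 netrins or netrin-Gs, 5 ephrin-As and 3 ephrin-Bs. The second table, TAC against sham quadriceps, was limited to 587 secreted-protein genes and held 13 of the ligands, 12 semaphorins and Slit3. It listed 1 transcript per gene, and for Sema3b, Sema3f, Sema4c, Sema4d, Sema6a and Sema6c this was not the transcript used between tissues.

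The study asked which secreted factors of skeletal muscle change when heart failure leads to cachexia. Male C57Bl/6JCrl mice (C57Bl6 in the labels), 8 weeks old by the labels, underwent transverse aortic constriction (TAC) over a 27 gauge needle, which puts the left ventricle under pressure overload, or a sham operation. Tissue was taken 12 weeks later. The 9 libraries came from sham heart (n = 3), sham quadriceps (n = 3) and TAC quadriceps (n = 3), and no transgene or drug was involved. The same 3 sham quadriceps libraries served both comparisons, with identical counts for the 587 listed transcripts, so that the comparisons are not independent. The deposited counts summed to 37057358, 38382751 and 33102826 in the heart libraries and to 32651317, 32989108 and 23383452 in the sham quadriceps libraries. On the 587 listed genes the counts came to 917422, 1006148 and 689630 in sham quadriceps and to 1166978, 1297786 and 1326011 after TAC. Each TAC library was therefore deeper on these genes than any sham library, which cannot be told apart from the operation. The study calls the replicates biological, the labels do not say whether each was 1 mouse, and p-values measure the spread between these libraries.

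Guidance ligands were named for steering growing axons, and they also direct blood vessels, immune cells and muscle innervation. Semaphorins signal through plexins, and the secreted class 3 members mostly need neuropilins as co-receptors. Class 4, 5 and 6 semaphorins span the membrane, and Sema7a is held by a lipid anchor and binds Plxnc1 and integrins. Slits are secreted ligands of Robo receptors. Netrins act through Dcc, neogenin and the Unc5 family, whereas the lipid-anchored netrin-Gs bind Lrrc4c and Lrrc4. Ephrin-As are lipid-anchored, ephrin-Bs are transmembrane, and both bind Eph receptor tyrosine kinases on neighbouring cells.

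Promoter sequences are shown for Sema6c and Sema3c, the most abundant ligands of quadriceps, and for Sema4c and Sema6b, which had the largest changes after TAC. Each is the 250 bases before a transcription start of RefSeq on GRCm38.p6, written on the strand of the gene. Capitals mark E-boxes, CANNTG in either orientation, the motif bound by the MyoD family and by many other basic helix-loop-helix factors.
Sema6c, chr3:95160170-95160419, plus strand: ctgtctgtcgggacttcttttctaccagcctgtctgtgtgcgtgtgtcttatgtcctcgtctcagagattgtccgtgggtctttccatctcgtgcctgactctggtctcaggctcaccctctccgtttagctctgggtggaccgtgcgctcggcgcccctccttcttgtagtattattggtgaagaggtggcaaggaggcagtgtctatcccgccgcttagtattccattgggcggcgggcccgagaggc
Sema6c, chr3:95164089-95164338, plus strand: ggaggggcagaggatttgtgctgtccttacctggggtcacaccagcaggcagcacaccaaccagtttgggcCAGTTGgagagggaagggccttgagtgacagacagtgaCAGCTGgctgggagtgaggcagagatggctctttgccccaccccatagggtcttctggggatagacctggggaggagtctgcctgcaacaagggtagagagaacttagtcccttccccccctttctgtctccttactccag
Sema3c, chr5:17574566-17574815, plus strand: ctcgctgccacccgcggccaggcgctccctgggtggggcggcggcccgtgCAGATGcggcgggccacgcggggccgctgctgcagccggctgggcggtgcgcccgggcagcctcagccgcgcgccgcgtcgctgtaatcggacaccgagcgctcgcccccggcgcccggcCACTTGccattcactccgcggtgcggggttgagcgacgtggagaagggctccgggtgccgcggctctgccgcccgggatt
Sema4c, chr1:36558382-36558631, minus strand: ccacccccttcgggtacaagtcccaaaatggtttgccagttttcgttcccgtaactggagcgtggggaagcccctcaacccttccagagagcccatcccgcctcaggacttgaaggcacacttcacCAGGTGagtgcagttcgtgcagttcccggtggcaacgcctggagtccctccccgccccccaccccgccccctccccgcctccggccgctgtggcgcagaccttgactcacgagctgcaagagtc
Sema6b, chr17:56140344-56140593, minus strand: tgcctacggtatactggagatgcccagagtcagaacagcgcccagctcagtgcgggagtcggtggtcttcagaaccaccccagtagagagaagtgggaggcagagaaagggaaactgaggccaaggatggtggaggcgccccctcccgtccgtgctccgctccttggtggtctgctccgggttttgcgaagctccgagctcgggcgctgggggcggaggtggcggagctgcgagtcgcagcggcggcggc
The downstream window of Sema6c held 2 E-boxes, 1 of them CAGCTG, which is a form of CANNTG, and the upstream window held none. The Sema3c window held 2, the Sema4c window shown held 1, and the other Sema4c window, not shown, held none. Neither Sema6b window held any. An E-box was present in 46.5% of the 43 windows of the 31 ligands with an entry, against 66.2% of all 32851 windows of this length. CAGCTG was present in 14.0% of ligand windows and 13.0% of all windows, and CATTCC, the core of the MCAT motif of TEAD factors, in 9.30% and 12.6%, both searched on both strands. These matches describe letters and not binding, which was not measured.

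The tissue labels were checked first against marker genes. All 6 skeletal muscle fibre markers were higher in quadriceps and all 6 cardiomyocyte markers were higher in heart. Their summed RPKM (counts scaled by transcript length and library total, as deposited) was 39748 ± 3446 in quadriceps and 1111 ± 96.3 in heart for the fibre list (SD, n = 3), of which Tnnt3 was the most abundant gene in quadriceps and Ckm in heart. The cardiomyocyte list, led by Tnnt2 in heart and Actc1 in quadriceps, stood at 85.0 ± 40.7 and 21041 ± 457.

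The guidance ligands differed in level and in their shares between heart and quadriceps. RPKM allows levels of different genes to be compared, and its sum over the 37 ligands was 91.1 ± 0.46 in heart and 31.6 ± 3.46 in quadriceps (SD, n = 3), 2.88 times higher in heart. RPKM is scaled by library totals, and with TMM factors, which scale libraries by a trimmed mean of their log ratios and are used in the tests, the ratio was 1.72. A mean of at least 1 RPKM was reached by 18 ligands in heart and by 7 in quadriceps, which were Sema3c, Sema6c, Sema4d, Efna1, Sema6d, Sema3b and Efnb2. All of these but Sema6c, at 0.47 RPKM, also reached that level in heart. Just under it in quadriceps were Sema7a at 0.98 RPKM and Ntn4 at 0.91 RPKM. The counts of 18 and 7 rest on library totals, which gave the larger ratio, and were not repeated with TMM factors. Semaphorins made up 77.0% ± 2.74 of the summed ligand RPKM in quadriceps and 43.5% ± 1.01 in heart. Ephrin-Bs made up 7.25% ± 0.34 and 22.8% ± 2.21, netrins 5.88% ± 0.95 and 17.2% ± 0.89, and ephrin-As 8.62% ± 1.71 and 15.0% ± 0.89, in the same order. Within these shares, no class but the semaphorins had a larger part in quadriceps, since slits took 1.27% ± 0.16 there and 1.57% ± 0.22 in heart, with overlapping libraries.

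In heart the highest level was that of Ntn1, with 12.6, 12.1 and 11.2 RPKM in libraries 1 to 3. Efna1 followed with 11.1, 9.97 and 10.9 RPKM and Efnb3 with 8.88, 10.1 and 12.3 RPKM. Every Ntn1 value was above every Efna1 value, but Efnb3 overlapped with both, so that its place among them is not resolved. Sema6d at 7.26 ± 0.46 RPKM, Sema3b at 6.88 ± 0.68 and Efnb2 at 6.64 ± 0.54 formed the next group, likewise overlapping.

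In quadriceps Sema3c stood first, with 10.1, 6.72 and 9.58 RPKM, which was 27.7% ± 3.71 of the ligand sum. Sema6c was second, with 4.82, 3.92 and 4.14 RPKM, and Sema4d came next, with 2.92, 3.63 and 3.32 RPKM. The 3 ligands did not overlap with each other in any library. Sema6c alone took 13.6% ± 0.22 of the ligand sum in quadriceps and 0.52% ± 0.04 in heart, where it ranked 22 of 37. Efna1 at 2.53 ± 0.55 RPKM and Sema6d at 2.06 ± 0.31 RPKM came next and overlapped, and Efna1 also overlapped with Sema4d.

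**Figure D1:**
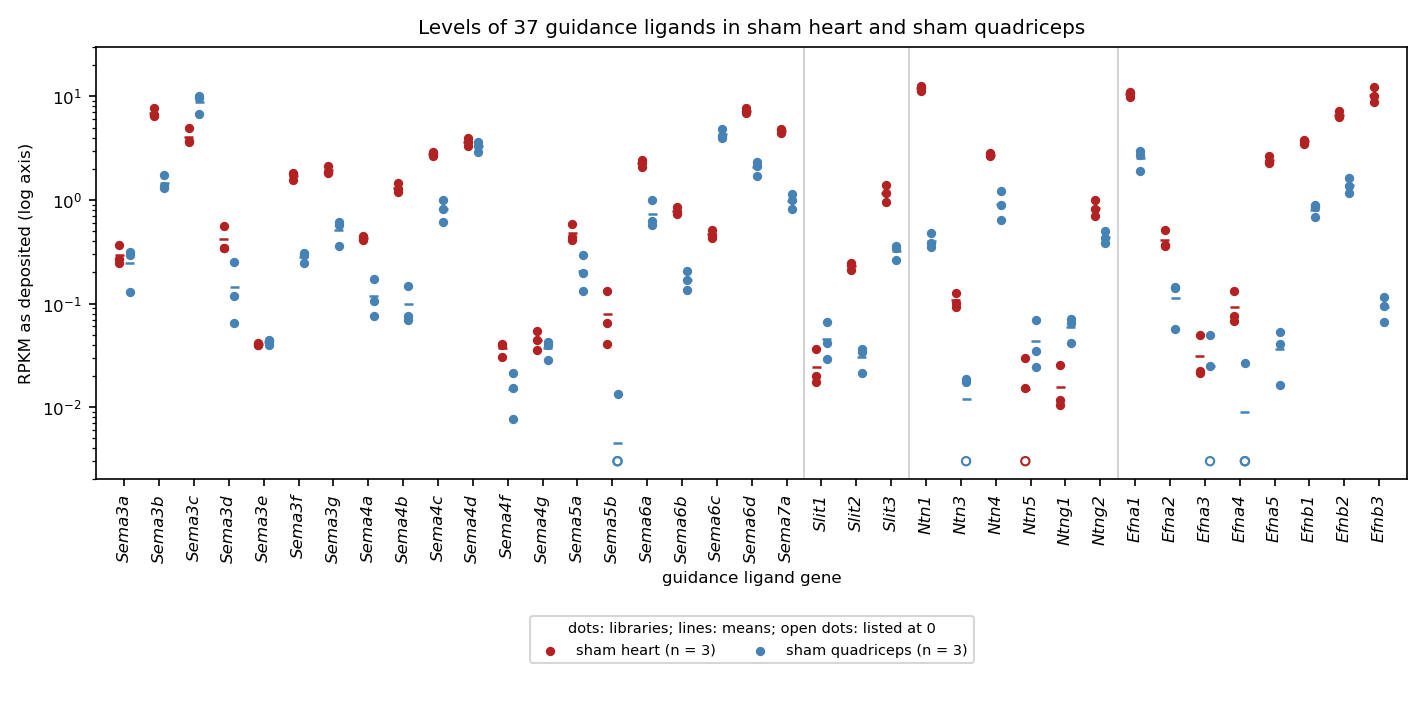
RPKM on a log axis of the 37 guidance ligands in the 3 sham heart (red) and 3 sham quadriceps (blue) libraries, with dots for libraries, lines for means and open dots for values listed at 0. Sema6c and Sema3c lie higher in quadriceps, whereas Ntn1, Efnb3 and Efna5 lie far higher in heart.

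Between the tissues, 34 ligands had enough counts for a test and 3, Efna3, Efna4 and Ntn5, did not. With edgeR's quasi-likelihood test on TMM-normalized counts, adjusted by Benjamini-Hochberg over all 24280 transcripts tested, 5 ligands were higher in quadriceps, 22 were lower and 7 were not called at an adjusted p under 0.05. Of all transcripts tested, 32.2% were higher and 34.4% lower (32.1% and 33.9% with 1 transcript per gene). The median log2 fold change, quadriceps over heart, was -1.13 over the 34 ligands (-1.09 with the 3 ligands of at most 3 counts in every quadriceps library at their bound) and -0.06 over all transcripts. The 3 quadriceps values lay above all heart values in 6 tested ligands, against 34.2% of all transcripts, and below them in 22, against 38.3%. The study kept genes with an unadjusted p under 0.05 and a log2 fold change above 2 in quadriceps, which 2 ligands and 7% of all transcripts met here. The same limits applied downward, an extension made here, were met by 7 ligands and 8.64% of transcripts. Scaling by library totals in place of TMM shifted the median of all transcripts from -0.06 to -0.80 and gave 3 higher and 25 lower ligands, where 13.3% of all transcripts were higher and 62.6% lower. Of the 27 called ligands 25 kept their call and direction with this scaling, and the exceptions were Sema4d and Slit1. In whole tissue, fewer cells of a type and less RNA per cell cannot be told apart.

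**Figure D2:**
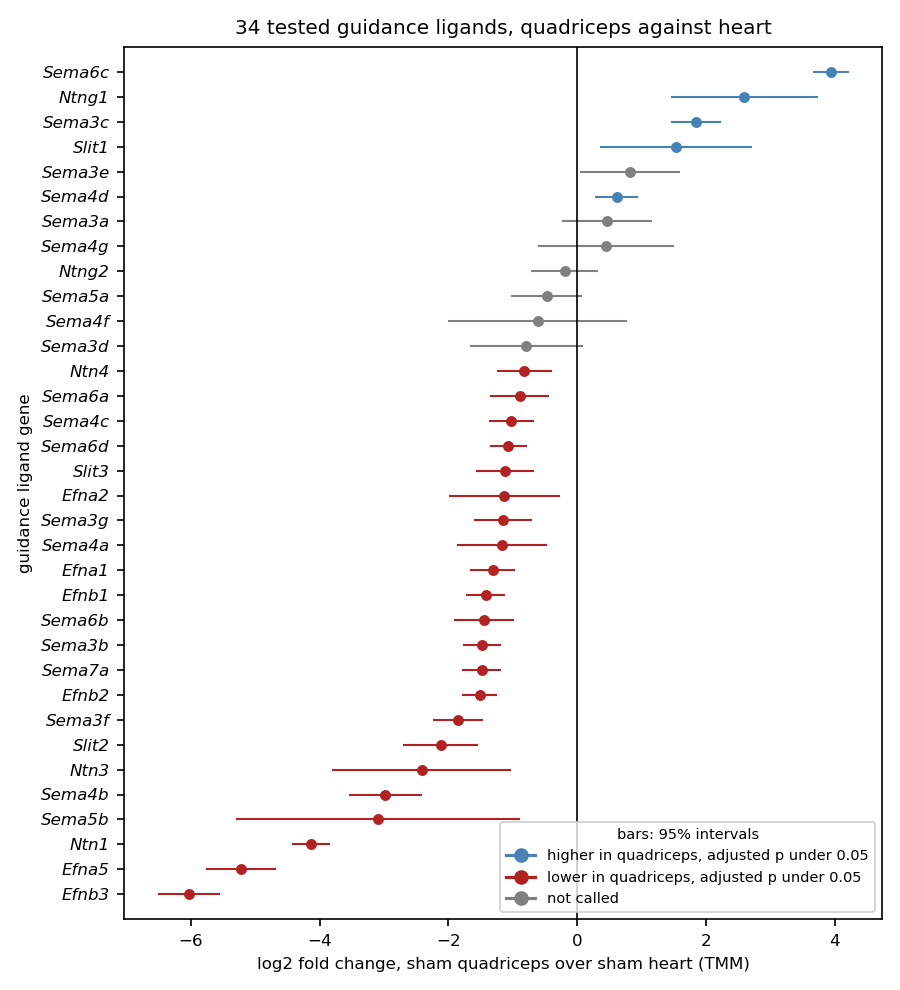
Log2 fold change of the 34 tested guidance ligands in sham quadriceps over sham heart (n = 3 each) with 95% intervals, on the TMM scale, coloured by the call at an adjusted p under 0.05. Sema6c, Ntng1, Sema3c, Slit1 and Sema4d lie to the right, and Efnb3, Efna5 and Ntn1 are farthest to the left. The values of Sema5b, Ntn3 and Sema4f rest on at most 3 counts in every quadriceps library.

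Among the semaphorins, 3 were higher in quadriceps, 11 lower and 6 not called. Sema6c, a transmembrane class 6 member, had heart counts of 66, 81 and 63 and quadriceps counts of 648, 533 and 399. In CPM, the counts relative to TMM-scaled library size, its level was 1.49 ± 0.11 in heart and 22.9 ± 0.83 in quadriceps (SD, n = 3). Every quadriceps library was far above every heart library, a log2 fold change of 3.94 ± 0.12 (SE, adjusted p = 7.01e-09). The level was 15.3-fold higher, the largest positive difference of any tested ligand.

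Sema3c, a secreted ligand of neuropilin and plexin receptors known for its part in cardiac outflow tract development, had heart counts of 904, 709 and 587 and quadriceps counts of 1628, 1094 and 1105. It was higher in quadriceps by 1.84 ± 0.17 on the log2 scale (adjusted p = 9.50e-06), with no overlap between the tissues. Sema4d, a transmembrane ligand of Plxnb1, had 11.8, 13.7 and 12.6 CPM in heart and 15.8, 22.7 and 19.8 CPM in quadriceps. Its log2 fold change was 0.61 ± 0.14 (adjusted p = 0.0035) with TMM but -0.15 with library totals (adjusted p = 0.27), and its RPKM overlapped between the tissues. The direction for Sema4d thus depended on the scaling.

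Among the lower semaphorins, Sema4b, a transmembrane class 4 member, had heart counts of 214, 194 and 156 and quadriceps counts of 19, 9 and 7, a log2 fold change of -2.98 ± 0.24 (adjusted p = 5.08e-06). Sema5b had heart counts of 11, 7 and 20 and quadriceps counts of 2, 0 and 0. Against a floor of 3 counts per library it was at least 2.06-fold lower in quadriceps, and its adjusted p of 0.018 rose to 0.057 without quadriceps library 2 and to 0.054 without library 3. Sema3f, a secreted ligand that prefers Nrp2, fell from 4.39 ± 0.37 to 1.21 ± 0.13 CPM (log2 fold change -1.85 ± 0.17, adjusted p = 9.35e-06).

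The other lower semaphorins had log2 fold changes between -1.48 and -0.89. They were Sema7a at -1.48, the secreted Sema3b at -1.48, Sema6b at -1.45, Sema4a at -1.17, Sema3g at -1.15, Sema6d at -1.07, Sema4c at -1.02 and Sema6a at -0.89. Within class 6, Sema6a, Sema6b and Sema6d were lower in quadriceps and Sema6c was higher. The 6 semaphorins that were not called were Sema3a, Sema3d, Sema3e, Sema4f, Sema4g and Sema5a. Sema3e, which binds Plxnd1 directly, came closest, with heart counts of 10, 11 and 9 and quadriceps counts of 10, 9 and 7 (log2 fold change 0.82 ± 0.34, adjusted p = 0.057). Sema3d and Sema5a varied among the quadriceps libraries, with 53, 14 and 18 and with 103, 47 and 50 counts. Their adjusted p of 0.093 and 0.11 fell to 0.0077 and 0.020 without quadriceps library 1, and both were called lower then, as they were with library totals. Sema3a was called higher without quadriceps library 2 (adjusted p = 0.017), where it had 29 counts against 66 and 50 in the others. Sema4f had heart counts of 6, 6 and 4 and quadriceps counts of 2, 1 and 2 (log2 fold change -0.61 ± 0.61, adjusted p = 0.42). Sema4g had 7, 9 and 5 and 4, 6 and 4 (0.45 ± 0.46, adjusted p = 0.43).

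Of the slits, Slit2 and Slit3 were lower in quadriceps and Slit1 was higher at very low counts. Slit2 had heart counts of 77, 95 and 78 and quadriceps counts of 11, 12 and 5 (log2 fold change -2.12 ± 0.25, adjusted p = 5.89e-05). Slit3 fell from 4.49 ± 0.87 to 2.08 ± 0.29 CPM (-1.12 ± 0.19, adjusted p = 0.00069). Slit1 had heart counts of 7, 4 and 3 and quadriceps counts of 7, 5 and 8 (1.53 ± 0.52, adjusted p = 0.025), and its RPKM overlapped between tissues. The Slit1 call was lost with DESeq2 (adjusted p = 0.055), with library totals (0.18), without heart library 2 (0.072) or 3 (0.067) and without quadriceps library 3 (0.082).

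Among the netrins the largest contrast was that of Ntn1, which guides commissural axons. It had heart counts of 2676, 2657 and 2125 and quadriceps counts of 89, 66 and 52. Its level was 17.6-fold lower in quadriceps (log2 fold change -4.14 ± 0.12, adjusted p = 7.28e-09), and it moved from rank 1 of the 37 ligands by RPKM in heart to rank 15. Ntn4, a laminin-binding netrin of basement membranes, had heart counts of 250, 249 and 213 and quadriceps counts of 95, 70 and 36 (-0.82 ± 0.18, adjusted p = 0.0030). Ntn3 had heart counts of 23, 19 and 15 and quadriceps counts of 3, 0 and 2, which was at least 2.99-fold lower against the floor of 3 counts per library (adjusted p = 0.0063). The netrin-G Ntng1 went the other way, with heart counts of 2, 5 and 2 and quadriceps counts of 11, 12 and 5 (2.60 ± 0.50, adjusted p = 0.0013). Ntng2 was not called (-0.20 ± 0.22, adjusted p = 0.46), but with library totals it was called lower (-0.94, adjusted p = 0.0055). It shares 558 exonic bases with 6530402F18Rik on the same strand, so that some of its reads may belong to that gene, and its transcripts differed in their call. The other 15 ligands with several tested transcripts had log2 fold changes within 0.05 of each other across transcripts. Ntn3 shares 89 exonic bases (1.74%) with Tbc1d24 on the same strand and 139 with BC028777 on the opposite strand. Some of the few Ntn3 reads may therefore belong to those genes.

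All 6 tested ephrins were lower in quadriceps. Efnb3, a transmembrane ephrin known for its part at the spinal midline, had heart counts of 1056, 1245 and 1302 and quadriceps counts of 12, 10 and 5. This was the largest difference of any tested ligand, 65.2-fold lower (log2 fold change -6.03 ± 0.21, adjusted p = 1.84e-08). Efna5, a lipid-anchored ephrin that directs topographic axon maps, had heart counts of 520, 466 and 399 and quadriceps counts of 9, 7 and 2 (-5.22 ± 0.23, adjusted p = 1.00e-07). Neither ligand came near an overlap between the tissues. Efnb2, the ephrin of arterial endothelium, fell from 22.1 ± 1.57 to 7.73 ± 0.72 CPM (-1.51 ± 0.11, adjusted p = 2.94e-06). Efnb1 differed by -1.42 ± 0.13 (adjusted p = 8.52e-06) and Efna1, the most abundant ephrin of quadriceps, by -1.31 ± 0.15 (adjusted p = 4.59e-05). The smallest difference was that of Efna2, with heart counts of 40, 29 and 26 and quadriceps counts of 10, 4 and 7 (-1.13 ± 0.37, adjusted p = 0.023). The Efna2 call was lost with DESeq2 (adjusted p = 0.053), without heart library 1 (0.074) and without quadriceps library 2 (0.076). Efna3 had at most 2 counts in any library, Efna4 had 4, 8 and 4 in heart and 0, 0 and 1 in quadriceps, and Ntn5 had 1, 2 and 0 and 4, 2 and 1.

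The receptors of these ligands were mostly lower in quadriceps as well. Of 38 receptor genes in 4 lists, 30 were tested, of which 1 was higher, 24 were lower and 5 were not called, where 32.1% of genes were higher and 33.9% lower with 1 transcript each. All 11 plexins and neuropilins were lower, with a median log2 fold change of -1.32, also with DESeq2 and with library totals. Plxnb1, the receptor of Sema4d, had heart counts of 1578, 1375 and 1242 and quadriceps counts of 21, 22 and 18 (-5.06 ± 0.15, adjusted p = 8.95e-09). Plxnb2 differed by -3.30 ± 0.13 and Nrp2 by -2.28 ± 0.13. The most abundant of the list in both tissues was the neuropilin Nrp1, at 29.6 ± 1.80 RPKM in heart and 7.57 ± 1.51 in quadriceps. Summed over the list, receptors of semaphorins stood at 74.3 ± 3.02 RPKM in heart and 14.0 ± 1.81 in quadriceps, 5.31 times higher in heart (3.17 times with TMM factors).

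All 3 tested Robo receptors were lower, led by the endothelial Robo4, with heart counts of 1051, 1079 and 1002 and quadriceps counts of 130, 125 and 89 (-2.15 ± 0.10, adjusted p = 1.53e-07), followed by Robo1 at -1.42 and Robo2 at -0.87. With DESeq2, 2 of the 3 were called. Of 6 tested netrin receptors, 4 were lower, 1 higher and 1 not called. Unc5a, a receptor for repulsion by netrin, had heart counts of 7, 5 and 4 and quadriceps counts of 94, 138 and 106, a 43.0-fold higher level (5.43 ± 0.33, adjusted p = 7.03e-07). Its relative Unc5b, known from endothelium, went the opposite way, with heart counts of 587, 701 and 513 and quadriceps counts of 25, 41 and 22 (-3.31 ± 0.19, adjusted p = 5.88e-07). Unc5c, with heart counts of 14, 6 and 6 and quadriceps counts of 0, 0 and 1, was at least 1.36-fold lower against the floor of 3 counts per library (adjusted p = 0.017). Lrrc4 at -0.99 and Neo1 at -0.74 were also lower, Lrrc4 losing its call with DESeq2 (adjusted p = 0.075), and Neo1 was the most abundant netrin receptor of both tissues. Dcc and Dscam were listed at 0 in all quadriceps libraries, and Dcc had 1 count in heart.

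Of 10 tested Eph receptors, 6 were lower and 4 were not called. Epha4, a receptor of both ephrin classes, had heart counts of 2891, 2698 and 2446 and quadriceps counts of 75, 48 and 37 (-4.63 ± 0.15, adjusted p = 1.11e-08). Ephb1 at -4.60 ± 0.35, Ephb3 at -4.23 ± 0.26, Ephb4, the receptor of venous endothelium, at -2.00 ± 0.12, Epha2 at -1.67 and Epha7 at -1.54 were the others. The Eph list as a whole stood at 27.1 ± 2.24 RPKM in heart and 1.99 ± 0.33 in quadriceps, 13.6 times higher in heart (8.10 times with TMM factors). Epha10 and Epha5 were listed at 0 in every library and Epha8 at 0 in quadriceps. Of the 21 genes of guidance signalling inside the cell, 3 were higher, 12 lower and 6 not called, against the same 32.1% and 33.9% of genes. The higher ones were Dpysl5 at 1.37 ± 0.51, with at most 11 counts in any library, the adaptor Nck2 at 0.93 ± 0.12 and the kinase Abl2 at 0.50 ± 0.11. None of the 3 was called higher with library totals, and Dpysl5 also lost its call with DESeq2 (adjusted p = 0.074). Among the lower ones, Dpysl4, a member of the collapsin response mediator family, had heart counts of 139, 99 and 96 and quadriceps counts of 1, 0 and 1, at least 17.6-fold lower. Srgap1, a Slit-Robo GTPase-activating protein, was lower by -2.72 ± 0.21 on the log2 scale and Vav2, a guanine nucleotide exchange factor, by -1.88 ± 0.14.

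**Figure D3:**
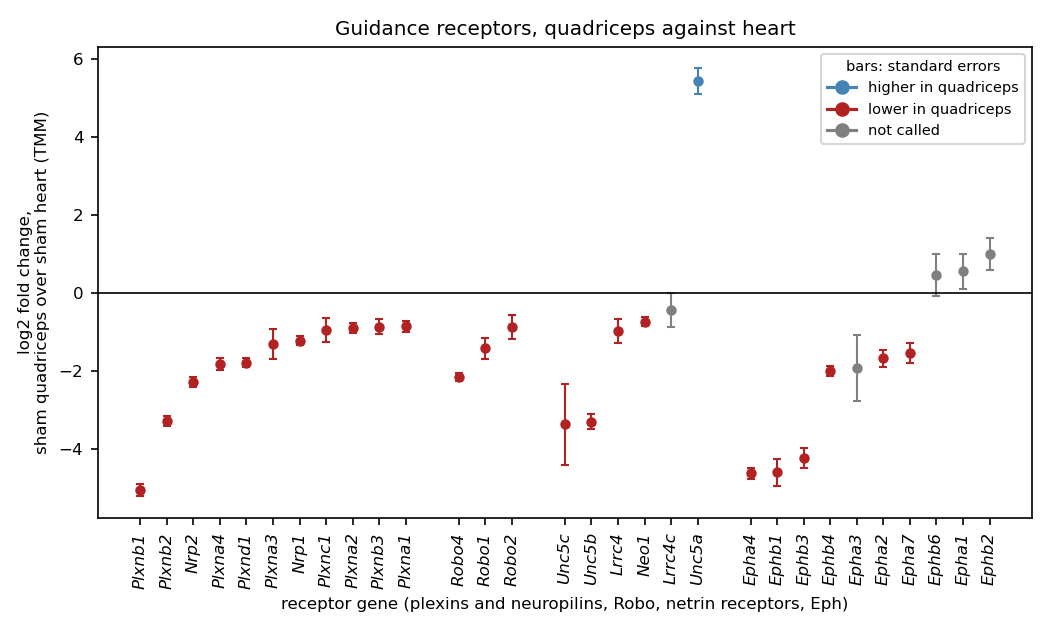
Log2 fold change of the 30 tested receptors of guidance ligands in sham quadriceps over sham heart (n = 3 each, TMM scale), with standard errors, grouped as plexins and neuropilins, Robo, netrin and Eph receptors. All but Unc5a and the Eph receptors Ephb6, Epha1 and Ephb2 lie below 0, and Unc5a stands alone at 5.43.

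Markers of other cell types differed between the tissues too. All 6 endothelial markers were lower in quadriceps (median log2 fold change -1.46), and their summed level was 158, 169 and 176 RPKM in heart and 37.2, 28.2 and 34.3 in quadriceps, with Cdh5 the most abundant. The epicardial list was tested for Wt1 alone, which was lower, and Upk3b and Upk1b were listed at 0 in quadriceps, where Krt19 led. Of 6 fibroblast markers 3 were lower and 3 not called, Dcn being the most abundant and not called. Of 6 mural markers 4 were lower, and the most abundant, Rgs5, was not called. Of 5 tested leukocyte markers 4 were lower, led by Lyz2. With library totals all 6 fibroblast, all 6 mural and all 5 leukocyte markers were lower, where 62.6% of all transcripts were. Dcn then stood at -0.92 (adjusted p = 0.0016) and Rgs5 at -0.74 (adjusted p = 0.011). Of 5 satellite cell markers 4 were higher, with Cdh15 leading in quadriceps and Vcam1, the 1 lower gene, in heart, where Calcr, Myf5 and Pax7 were listed at 0. Calcr lost its call with DESeq2 (adjusted p = 0.15). All 5 adipocyte markers, led by Cfd, were higher, but they summed to 96.0, 38.9 and 11.1 RPKM in the 3 quadriceps libraries and to 1.71, 0.92 and 0.49 RPKM in heart. The part of these cell types in the ligand and receptor differences was not tested.

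After TAC, the 13 listed ligands were tested among 586 secreted-protein genes with the quasi-likelihood test of edgeR. With TMM over the listed genes, 4 semaphorins were higher, Sema4c, Sema6b, Sema7a and Sema3c, and none was lower. Of all genes tested, 17.7% were higher and 11.9% lower. With DESeq2, 4 of the 13 were higher and none was lower, where 109 of 586 genes were higher and 80 lower. At an unadjusted p under 0.05, 7 of the 13 were higher and none was lower. The share of all genes at that level is not given here, so these 7 have no background to be read against. The median log2 fold change, TAC over sham, was 0.61 over the 13 ligands and 0.03 over all genes. The TAC libraries lay above all sham libraries in 7 ligands, against 26.1% of genes, and below them in 2, against 21.2%. By the study's criterion for TAC, an unadjusted p under 0.05 and a log2 fold change of at least 1, Sema4c and Sema6b were higher and none was lower, where 11.4% of genes were higher and 12.6% lower.

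Library totals were available for 5 libraries, since that of TAC library 4 was not used, so that values with library totals differ from those above in the scaling and in this library. With TMM on the same 5 libraries, the 4 semaphorins were still higher and none was lower, where 11.1% of genes were higher and 12.1% lower, and the median of all genes was -0.08. With library totals on them the median was -0.63. Higher ligands were then 2, Sema4c and Sema6b, and 2 were lower, Sema3b and Sema6a, where 3.41% of genes were higher and 30.7% lower. Leaving out any 1 of the 3 sham libraries left Sema4c as the single higher ligand. Of all 586 genes, 25, 35 and 34 were higher without sham libraries 1, 2 and 3, against 104 with all 6 libraries. With TMM, the endothelial marker Pecam1, the single endothelial gene of the table, also rose, by 0.63 ± 0.18 on the log2 scale (adjusted p = 0.034), but it stood at 0.54 (adjusted p = 0.085) without TAC library 4 and at -0.02 (adjusted p = 0.95) with library totals. The exact permutation test of 3 against 3 libraries cannot give a p below 0.1 for a single value.

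Sema4c, a transmembrane ligand of Plxnb2 expressed during myogenic differentiation, had the largest change. Its normalized counts, scaled to the mean library, were 99.2, 103 and 79.7 in sham and 478, 827 and 239 in TAC libraries 1, 2 and 4. The lowest TAC library was 2.32 times the highest sham library, and the TAC libraries differed 3.45-fold among themselves. The log2 fold change was 2.45 ± 0.44 (SE, adjusted p = 0.0079), and over 12 alternatives it lay between 1.93 and 2.69 with an adjusted p of at most 0.036. With library totals it was 2.14 (adjusted p = 0.0050). Sema4c lies on chromosome 1 of GRCm38 from 36548639 to 36558349 on the minus strand, and 334 of its exonic bases (7.27%) are shared with D430040D24Rik on the opposite strand. Whether strand was used in counting is not given in the sources used here.

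Sema6b, a class 6 semaphorin that binds A-type plexins, had 21.1, 17.2 and 20.6 normalized counts in sham and 72.6, 129 and 35.1 in TAC. It was higher in every TAC library (log2 fold change 2.0 ± 0.47, adjusted p = 0.018) and stayed called with library totals (1.70, adjusted p = 0.017). Without sham library 1, 2 or 3 the adjusted p was 0.071, 0.065 and 0.052. The TAC libraries stood in the same order for Sema6b as for Sema4c, with library 2 highest and library 4 lowest. Both ligands were lower in sham quadriceps than in sham heart. Sema6b had 0.17 ± 0.04 RPKM in quadriceps and 0.78 ± 0.06 in heart, and Sema4c had 0.81 ± 0.19 and 2.78 ± 0.11.

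Sema3c and Sema7a had smaller changes that did not hold with library totals. Sema3c, the most abundant ligand of quadriceps, had 1323, 1106 and 1519 normalized counts in sham and 2598, 2182 and 2104 in TAC (0.80 ± 0.20, adjusted p = 0.021). With library totals it stood at 0.21 (adjusted p = 0.49). Its call was also lost without any 1 of the sham libraries (adjusted p of 0.086, 0.088 and 0.057 without libraries 1, 2 and 3) and without TAC library 1 (0.063). Sema7a had 98.4, 108 and 85.2 in sham and 210, 187 and 139 in TAC (0.88 ± 0.25, adjusted p = 0.034), and 0.38 with library totals (adjusted p = 0.29). It lost its call without sham library 1, 2 or 3 (adjusted p = 0.13, 0.074 and 0.14) and without TAC library 1 (0.086).

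**Figure D4:**
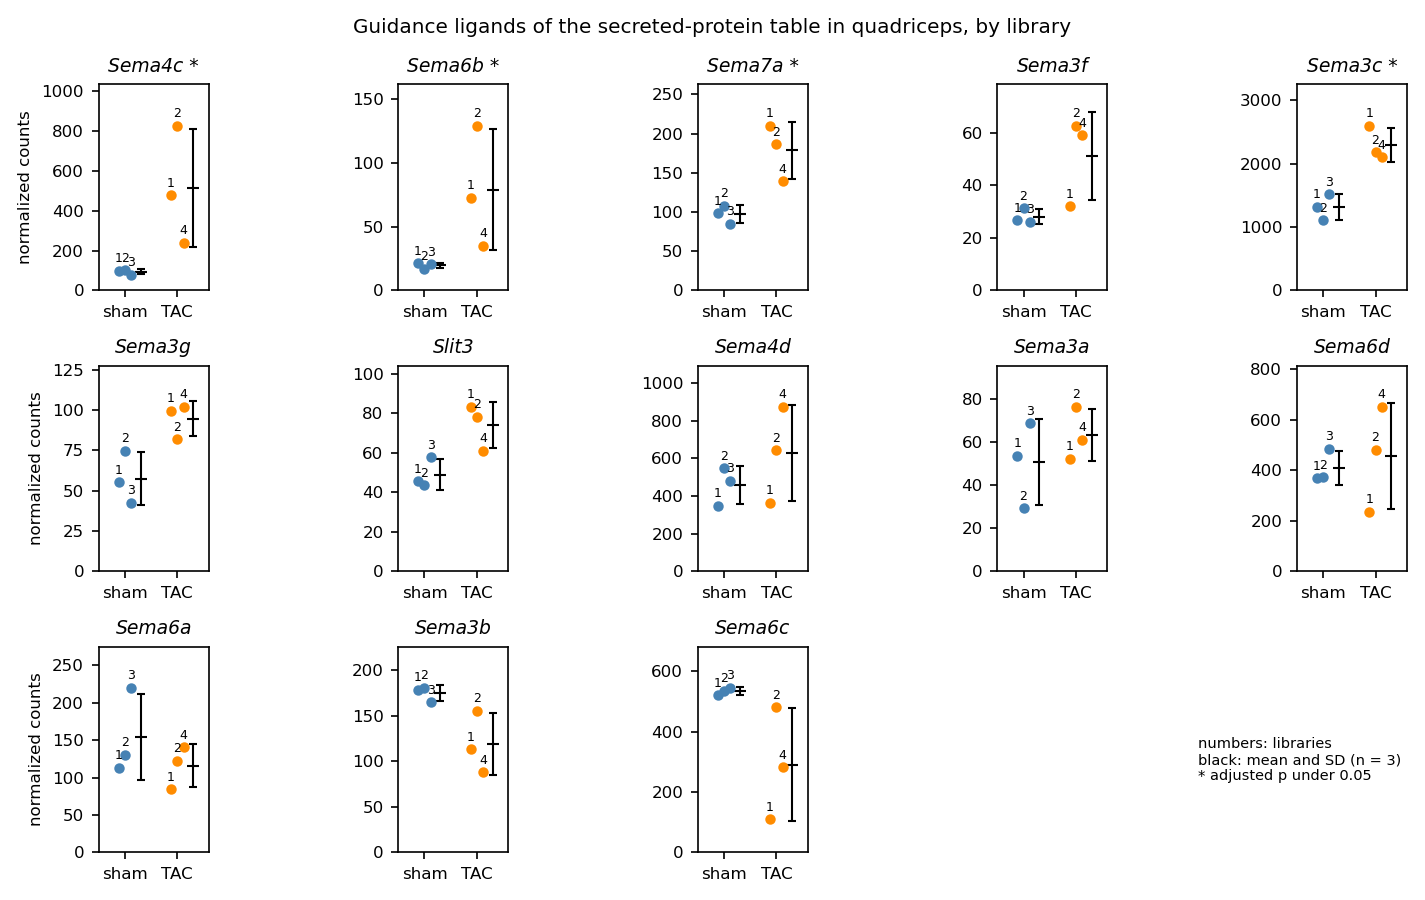
Normalized counts of the 13 listed guidance ligands in the sham (blue) and TAC (orange) quadriceps libraries, numbered as in the table, with mean and SD (n = 3) in black and axes from 0. Sema4c and Sema6b show the widest gap, with TAC library 2 highest and library 4 lowest in both, and Sema6c is low in TAC library 1.

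Sema6c, the ligand most typical of quadriceps by its contrast with heart, did not pass the test. It had 521, 536 and 546 normalized counts in sham and 109, 481 and 281 in TAC libraries 1, 2 and 4. All TAC values lay below all sham values, but they spread 4.40-fold, against 1.05-fold in sham. The log2 fold change was -0.88 ± 0.45 (adjusted p = 0.18). Without TAC library 2 it was -1.45 and called lower (adjusted p = 0.030), and with library totals it was -1.51 (adjusted p = 0.067). With a replicate block on the 4 libraries numbered 1 and 2 it was -1.18 ± 0.44 and called lower (adjusted p = 0.042). Without the block it was -0.84 ± 0.56 for these libraries (adjusted p = 0.33). The numbers were not taken to pair samples, so the blocked value is given as an alternative only.

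Sema3b had 179, 181 and 165 normalized counts in sham and 113, 156 and 88.1 in TAC, again without overlap (-0.56 ± 0.27, adjusted p = 0.15). It was called lower without TAC library 2 (-0.80, adjusted p = 0.043) and with library totals (-1.03, adjusted p = 0.033). Sema6a overlapped between the groups, with 113, 130 and 220 in sham and 84.3, 122 and 140 in TAC (-0.41 ± 0.33, adjusted p = 0.39). It was -0.66 without TAC library 4 (adjusted p = 0.19) and was called lower with library totals (-1.20, adjusted p = 0.037).

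Of the rest, Sema3f, Sema3g and Slit3 lay higher in every TAC library than in any sham library but were not called. Sema3f had 26.8, 31.3 and 26.1 normalized counts in sham and 32.0, 62.6 and 59.1 in TAC (0.86 ± 0.34, adjusted p = 0.089), and was called without TAC library 1 (adjusted p = 0.046). Sema3g, a class 3 semaphorin of vessels, had 55.3, 74.8 and 42.6 and 99.8, 82.2 and 102 (0.71 ± 0.27, adjusted p = 0.083). Slit3 had 45.5, 43.5 and 57.7 and 83.3, 78.3 and 61.1 (0.61 ± 0.25, adjusted p = 0.10). With library totals these 3 ligands stood at 0.10, 0.02 and 0.09. Sema4d, Sema3a and Sema6d overlapped between the groups, with log2 fold changes of 0.45, 0.33 and 0.16 with TMM, of 0.04, 0.26 and -0.29 with TMM without TAC library 4, and of -0.49, -0.30 and -0.83 with library totals. Sema4d spread from 365 to 873 normalized counts among the TAC libraries and Sema6d from 236 to 651, library 1 being lowest and library 4 highest in both.

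**Figure D5:**
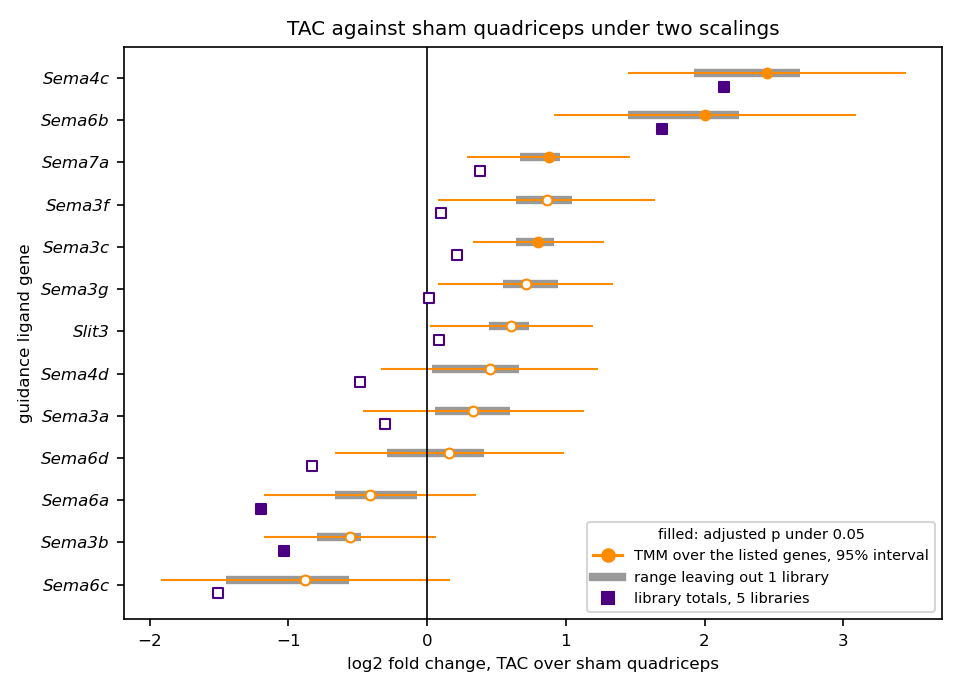
Log2 fold change of the 13 listed guidance ligands in TAC over sham quadriceps, with TMM over the listed genes and its 95% interval (orange, 6 libraries), the range on leaving out each library (grey) and library totals (purple squares, 5 libraries), filled where the adjusted p is under 0.05. Sema4c and Sema6b are filled under both scalings, and every square lies to the left of its circle.

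No receptor of these ligands and 1 gene of guidance signalling were in the TAC table. Dpysl3, the collapsin response mediator active in growing axons, had 176, 148 and 225 normalized counts in sham and 95.9, 60.7 and 92.1 in TAC (-1.14 ± 0.29, adjusted p = 0.021). Of the cell type markers in that table, 4 of 5 fibroblast genes were lower, Col3a1 at -3.95, Col1a1 at -3.31, Lum at -2.34 and Dpt at -1.34, while Dcn, the most abundant, stood at 0.17 (adjusted p = 0.60), at -0.04 without TAC library 4 and at -0.62 with library totals (adjusted p = 0.12). The 5 genes summed to 12811, 9782 and 10963 normalized counts in sham and to 8483, 6298 and 9462 in TAC. The leukocyte gene Lyz2 was lower by -1.25 ± 0.26 (adjusted p = 0.012) and Vcam1 of the satellite cell list by -1.01 ± 0.25 (adjusted p = 0.021). With library totals Dpysl3, Lyz2, Vcam1 and the 4 lower fibroblast genes stayed lower, Dpysl3 at -1.86, Lyz2 at -2.05 and Vcam1 at -1.74. The 3 adipocyte genes and the fibre gene Ckm were not called, and the adipocyte sum varied from 315 to 2302 in sham and from 415 to 2860 in TAC. No mural, cardiomyocyte or epicardial marker was in the table. The part of these cell types in the changes of the semaphorins was not tested.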

How the data were processed

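RNA was sequenced from sham heart, sham quadriceps and TAC quadriceps. According to the methods and the submitters' processing notes, the authors used Trim Galore for trimming, STAR for alignment to mm10 and Rsubread for counting, and the deposited counts are raw and per RefSeq transcript. Deposited RPKM values are these counts over transcript length and library total. Fold changes, p-values and adjusted p-values of the authors' own edgeR comparisons are in both tables and were not used. A counts column numbered 4 belongs to the TAC group but to no sample number, and it was used as a TAC library without pairing. The RPKM column of that library was the 1 column of single libraries left unused.

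Counts were tested with edgeR 4.0.16 (R 4.3.3) with TMM on transcripts that exceeded 5 counts in 2 or more libraries, as in the study. This left 24280 transcripts, and 586 genes in the TAC table, where TMM refers to the listed genes only. Adjusted p-values are Benjamini-Hochberg over all features tested. Normalized counts of the TAC table are scaled to the mean of the 6 library sizes. Alternatives were DESeq2 1.42.0, library totals, other count filters, 1 transcript per gene, a replicate block and leaving out each library. The procedure was tested on simulated data. Replicate libraries differed by more than sampling noise (chi-square per degree of freedom at least 7.10), so none was counted as a duplicate. Floors of 3 counts cover counting error only. Positions come from GENCODE vM21 and promoter sequences from RefSeq.

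The ligands, the receptor, signalling and marker lists and the tests were chosen with earlier results of these data known. The text names each ligand of the TAC table, the ligands with the largest called differences between tissues (up to 12 each way) and those not called, up to 3 called genes each way of a pathway list, and the most abundant and the absent genes of a marker list. Other genes were named after their values were seen, and a marker list is not reported here.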

Additional observations from a re-analysis of the deposited data

How the results depend on the processing

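For quadriceps against heart, 23 of the 27 called ligands kept their call and direction in every alternative that tested them, the exceptions being Efna2, Sema4d, Sema5b and Slit1. Higher ligands, 5 in the report, were 3 with library totals, 3 with at least 10 counts in every library (21 tested) and 2 by the study's criterion. Lower ligands, 22 in the report, were 14 with that filter and 7 by that criterion applied downward. Of the 19432 transcripts that passed that filter, 6494 were higher and 6902 lower. Of receptor and signalling genes, 4 higher became 1 with library totals, 2 with the filter and 1 by the study's criterion, and 36 lower became 12 by it applied downward. Of all transcripts, 13.3% were higher with library totals and 7% by the criterion, and 8.64% were lower by it. With library totals, lower were 11 of 11 semaphorin, 3 of 3 Robo, 5 of 6 netrin and 7 of 10 Eph receptors. So were 15 of 21 signalling genes and 62.6% of all transcripts. With library totals Sema4d (-0.15), Sema3a (-0.27) and Sema4g (-0.29) changed sign. Leaving out 1 library gave 4 to 5 higher and 20 to 24 lower ligands, Ntng1 falling below the count filter without quadriceps library 1 or 2. Of all transcripts tested, 6987 to 8146 were then higher and 7409 to 8357 lower, against 7828 and 8354 with all libraries.

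For TAC against sham, 4 higher ligands became 2 with library totals on 5 libraries (4 with TMM on these), 2 by the study's criterion and 1 to 4 on leaving out 1 library. None lower became 2 with library totals (none with TMM on the same 5) and 0 to 2 on leaving out 1 library. Of all 586 genes, leaving out 1 library gave 25 to 113 higher and 35 to 102 lower, against 104 and 70 with all libraries. Sema4c was called in each of the 12 alternatives. With library totals Sema6d (-0.83), Sema3a (-0.30) and Sema4d (-0.49) changed sign, and Sema6d did so without TAC library 4 (-0.29; range -0.29 to 0.41 on leaving out 1 library). Of all values of single ligands under alternatives, 372 of 391 between tissues and 127 of 156 after TAC kept their direction and call. These counts include ligands that were not called and stayed so, and 9 of the 13 ligands were not called after TAC. A call was lost in 17 values after TAC, all of them of Sema3c, Sema7a or Sema6b.

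Same-numbered libraries did not deviate together (r of 0.06, -0.04 and 0.04 between heart and quadriceps, and 0.06 between sham and TAC), so the numbers were not taken to pair samples. A replicate block gave 5 higher and 22 lower ligands between tissues, and 3 higher and 35 lower receptor and signalling genes. Of all 24280 transcripts, 7541 were higher and 8175 lower with this block. For the 4 quadriceps libraries numbered 1 and 2, the replicate block gave 2 higher and 1 lower ligand after TAC, Sema6c. The same libraries without the block, added after seeing the data, gave 2 higher and none lower. Of all 586 genes, 56 were higher and 62 lower with the block, and 49 and 39 without it. Sema6d, not called in either, changed sign in both (-0.13 and -0.046). Slit1, Ntng1, Sema4f, Sema4g and Sema5b rest on few counts per library, which limits the precision of their values.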
